A study of Homo sapiens with 8 samples.

Results

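Collagens, laminins, integrins, fibronectin and 4 further basement membrane genes were followed in HepG2, an established human hepatoma cell line. The set was defined by symbol, but it was chosen with earlier results of these data known. It took every gene named as a collagen chain (COL followed by a type and chain number) or as a laminin chain (LAMA, LAMB or LAMC). It also took every integrin subunit (ITGA or ITGB), together with FN1, NID1, NID2, HSPG2 and AGRN. It held 86 of the 24462 genes in the table: 44 collagen genes, 12 laminin genes, 17 integrin alpha and 8 integrin beta genes, FN1 and the other 4. RNA was sequenced from 4 libraries of a group labelled mock and 4 libraries of a group labelled EDN1 O/E, in which EDN1, the gene of the secreted peptide endothelin-1, was overexpressed; cells of both groups grew in serum-supplemented DMEM with antibiotics and had no further treatment. The labels give neither the way EDN1 was introduced nor whether a group is a clone or a pool, and they leave the origin of the 4 libraries of a group unstated; p-values therefore reflect only how far these libraries spread, which may be technical.

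Fibronectin and the laminins are secreted glycoproteins on which epithelial cells rest. Laminins are trimers of an alpha, a beta and a gamma chain that polymerise into the basement membrane sheet, where nidogen, perlecan (HSPG2) and agrin (AGRN) link them to the network of type IV collagen. Integrins are surface receptors, each a pair of an alpha and a beta subunit, that bind these proteins outside the cell and tie them to the actin cytoskeleton inside. Liver parenchymal cells secrete fibronectin into plasma, while most fibrillar collagen of the liver is made by stellate cells and fibroblasts.

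A gene was taken as detected when it had 10 or more counts in 4 or more libraries, and 32 of the 86 genes met this. The detected collagens were COL1A1, COL4A5, COL4A6, COL6A1, COL6A2, COL7A1, COL9A2, COL9A3, COL16A1, COL18A1 and COL27A1. The detected laminin chains were LAMA5, LAMB1, LAMB2, LAMC1 and LAMC3. Among integrin subunits ITGA1, ITGA2, ITGA3, ITGA6, ITGA7, ITGA10, ITGAE, ITGAV, ITGB1, ITGB2, ITGB4 and ITGB5 were detected, and FN1, AGRN, HSPG2 and NID1 completed the list. The other 54 genes were below that limit, 46 of the 86 had at most 9 counts in every library, and COL8A1, COL20A1, ITGA9 and ITGAD had 0 counts in all 8. Just inside the limit, with 4 libraries at 10 counts or more, stood COL1A1, COL4A6 and COL6A2, and just outside it, with 3 such libraries, COL2A1, COL4A2 and COL17A1. COL6A2 did not pass the filter of the statistical test, which left 31 tested genes.

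Total counts ran from 8409173 to 14932385 per library, so that 3 counts, the most that a count of 0 allows, correspond to 0.201 to 0.357 CPM, the count scaled to library size; these limits cover counting error only. The EDN1 counts were 9 to 29 in mock and 2284 to 4764 in the EDN1 libraries. When the libraries were clustered on the genes outside the 86, mock 4, EDN1 3 and EDN1 4 formed a cluster of their own, called the second library set, and the remaining 5 are called the first library set; no label gives a batch, and the correlations between sets (0.936 to 0.972) overlapped those within the first set (0.958 to 0.987). The liver markers ALB, APOA1, APOB, TTR, SERPINA1, AFP, TF, HNF4A, FGB and RBP4 were all detected, with summed levels of 6519 to 8745 CPM in mock and 6129 to 8458 CPM in the EDN1 libraries. APOB gave the largest part of these sums. Of the 10 markers 4 were higher and 6 lower in the EDN1 libraries, and AFP averaged 1028 CPM in mock and 595 CPM in the EDN1 libraries, with overlapping groups. Of 12 fibroblast and stellate cell markers THY1, LUM, POSTN and LRAT were at 0 in all libraries, DCN had at most 1 count, and the sum, which came mostly from ACTA2 and S100A4, was 82.9 to 319.7 CPM in mock and 82.2 to 549.9 CPM in the EDN1 libraries. Of 10 endothelial markers KDR and CLEC4G were at 0 and the sum was at most 3.85 CPM. Of 10 blood and immune markers CD3E and GP9 were at 0 and PTPRC had at most 1 count, while the sum, mostly LYZ, was 422 to 780 CPM in mock and 391 to 787 CPM in the EDN1 libraries.

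The comparison asked how these genes differed between EDN1 overexpression and mock. None of the 31 tested genes passed edgeR's quasi-likelihood test over all genes, at a Benjamini-Hochberg adjusted p threshold of 0.05; of the 12577 genes tested, 1 (EDN1 itself, 0.00795%) did. At an unadjusted p under 0.05 there were 4 of the 31, against 359 genes or 2.85% of all tested (2.03% for those higher in EDN1 overexpression), and these 4, COL4A6, COL4A5, ITGB4 and ITGAV, were also the tested genes in which the libraries of the groups did not overlap, as in 2.04% of all tested genes. All 4 were higher in EDN1 overexpression, a pattern held by 1.38% of all tested genes, and 0 of the 31 were lower without overlap, against 0.668%. COL4A6 entered the test only through the EDN1 libraries, since every mock count was under 10, so its place among the 4 was partly fixed by the filter. COL4A5 had 10 or more counts in 2 mock and 4 EDN1 libraries, so its entry also rested on the EDN1 libraries. The median log2 fold change (log2 ratio, EDN1 overexpression over mock) over the 31 was 0.05, beside 0.00 over all genes, and 19 of 31 were positive, beside 50.3% of all genes. For 22 of the 31 genes the 95% interval excluded a difference of 2-fold or more, beside 79.4% of all genes.

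The type IV collagen genes COL4A5 and COL4A6 lie head to head on chromosome X, and their upstream sequences are shown because both genes had non-overlapping groups in the same direction. Sequences are the 250 bases before each RefSeq start in build GRCh38.p14, read in the direction of the gene; the counts were made on hg19 and no coordinate of the deposited table is used. The windows are chrX:108439588-108439837 on the plus strand for COL4A5, chrX:108439459-108439708 on the minus strand for COL4A6 and chrX:108438423-108438672 on the minus strand for a further COL4A6 start 1036 bases into the gene. Capitals mark matches, searched on both strands, to the letters CCAAT (the CCAAT box) or to the letters GGGCGG (the GC box).
COL4A5: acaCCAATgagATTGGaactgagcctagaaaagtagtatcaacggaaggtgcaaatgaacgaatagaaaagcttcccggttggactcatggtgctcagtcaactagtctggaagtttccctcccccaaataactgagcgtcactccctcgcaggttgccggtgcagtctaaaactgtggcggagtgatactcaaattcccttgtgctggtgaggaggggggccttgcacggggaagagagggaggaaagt
COL4A6: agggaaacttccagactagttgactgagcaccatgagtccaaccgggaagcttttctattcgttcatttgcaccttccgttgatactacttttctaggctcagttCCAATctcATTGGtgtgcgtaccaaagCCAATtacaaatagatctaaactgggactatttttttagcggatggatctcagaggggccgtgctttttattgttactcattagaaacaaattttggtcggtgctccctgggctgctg
COL4A6, downstream start: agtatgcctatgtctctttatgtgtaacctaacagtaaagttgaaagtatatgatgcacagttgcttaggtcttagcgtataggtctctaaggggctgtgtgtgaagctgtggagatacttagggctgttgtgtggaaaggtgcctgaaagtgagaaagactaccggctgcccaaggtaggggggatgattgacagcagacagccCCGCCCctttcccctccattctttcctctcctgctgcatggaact
The COL4A5 and COL4A6 starts had 379 bases between them, and the first 2 windows overlapped by 121 bases. The COL4A5 window held 2 matches to CCAAT and the COL4A6 window 3, of which 2 were the shared pair in the overlap; the window of the downstream start held no match to CCAAT and 1 to GGGCGG. The CCAAT box was in 32% of all 35116 upstream windows, with 42.6% for the GC box and 10.7% for the TATA box (TATAAA), which was in none of the 3 windows shown. The share of G and C was 51.2%, 44.0% and 48.8% in the 3 windows, beside a median of 58.0% over all windows. Exons of annotated COL4A6 transcripts reached into the windows, by at most 39 bases in the COL4A6 window and 8 in that of the downstream start. These matches describe letters and not binding, and the counts do not separate the COL4A6 starts.

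COL4A6, which encodes a chain of the type IV collagen found in some epithelial and smooth muscle basement membranes, had 6, 6, 3 and 9 counts in mock 1 to 4 and 31, 12, 19 and 14 in the EDN1 libraries 1 to 4. In CPM these were 0.468, 0.741, 0.348 and 0.622 in mock and 2.52, 1.36, 1.67 and 1.62 in the EDN1 libraries, so every EDN1 library lay above every mock library and EDN1 1 was the highest. The means were 0.545 ± 0.172 and 1.79 ± 0.505 CPM (SD, n = 4 each), a log2 ratio of 1.71 (SE 0.36, 95% interval 0.91 to 2.51), or 3.27-fold. Every mock count was under 10, so COL4A6 entered the test only through the EDN1 libraries, and its test values carry that limit. The edgeR quasi-likelihood test gave an unadjusted p of 7.10e-04 and a Benjamini-Hochberg adjusted p of 1.00, so the difference did not pass over all genes. It was 1.92 (SE 0.54) within the first library set and 1.37 (SE 1.00) within the second, where the lone mock library is assumed to vary like the EDN1 libraries.

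COL4A5, which encodes the chain that pairs with COL4A6 and also forms the trimer with COL4A3 and COL4A4, had 22, 8, 9 and 13 counts in mock and 29, 26, 21 and 21 in the EDN1 libraries. The levels were 1.72, 0.988, 1.04 and 0.898 CPM in mock 1 to 4 and 2.36, 2.95, 1.84 and 2.43 CPM in the EDN1 libraries 1 to 4. Mock 1 stood above the other mock libraries and just below EDN1 3, the lowest of the EDN1 group. The entry of COL4A5 into the test also rested on the EDN1 libraries. The log2 fold change was 1.02 (SE 0.32, 95% interval 0.32 to 1.72), with an unadjusted p of 0.00865 and an edgeR adjusted p of 1.00. It was 1.04 (SE 0.43) within the first library set and 1.22 (SE 0.90) within the second.

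The other type IV chains were below the limit of detection. COL4A1 and COL4A2, which form the type IV collagen of nearly all basement membranes and lie head to head with 126 bases between their starts, had 0 to 1 and 5 to 19 counts. COL4A2 had 8, 7, 5 and 10 counts in mock and 13, 19, 5 and 5 in the EDN1 libraries, with overlapping groups. COL4A3 had at most 4 counts and COL4A4 at most 3.

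FN1, fibronectin, was the most counted gene in each of the 8 libraries. Its level was 14377, 30017, 20818 and 37023 CPM in mock 1 to 4 and 15925, 20676, 24802 and 45731 CPM in the EDN1 libraries 1 to 4. The groups overlapped over nearly their whole range, with mock 1 and EDN1 1 lowest and mock 4 and EDN1 4 highest. In bulk RNA a smaller share of cells making a transcript and less of it per cell cannot be told apart, here and for every gene below. The means were 25559 ± 9980 and 26784 ± 13142 CPM (SD, n = 4 each), a log2 ratio of 0.07 (SE 0.37, 95% interval -0.75 to 0.88). This value turned to -0.32 without EDN1 4, -0.13 without mock 1 and -0.02 without mock 3, and it was -0.25 (SE 0.31) within the first library set and -0.08 (SE 0.62) within the second. By library set the mean was 20363 CPM in the first and 35852 CPM in the second, 1.76 times as high, and mock 2 of the first set lay above EDN1 3 of the second.

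**Figure D1:**
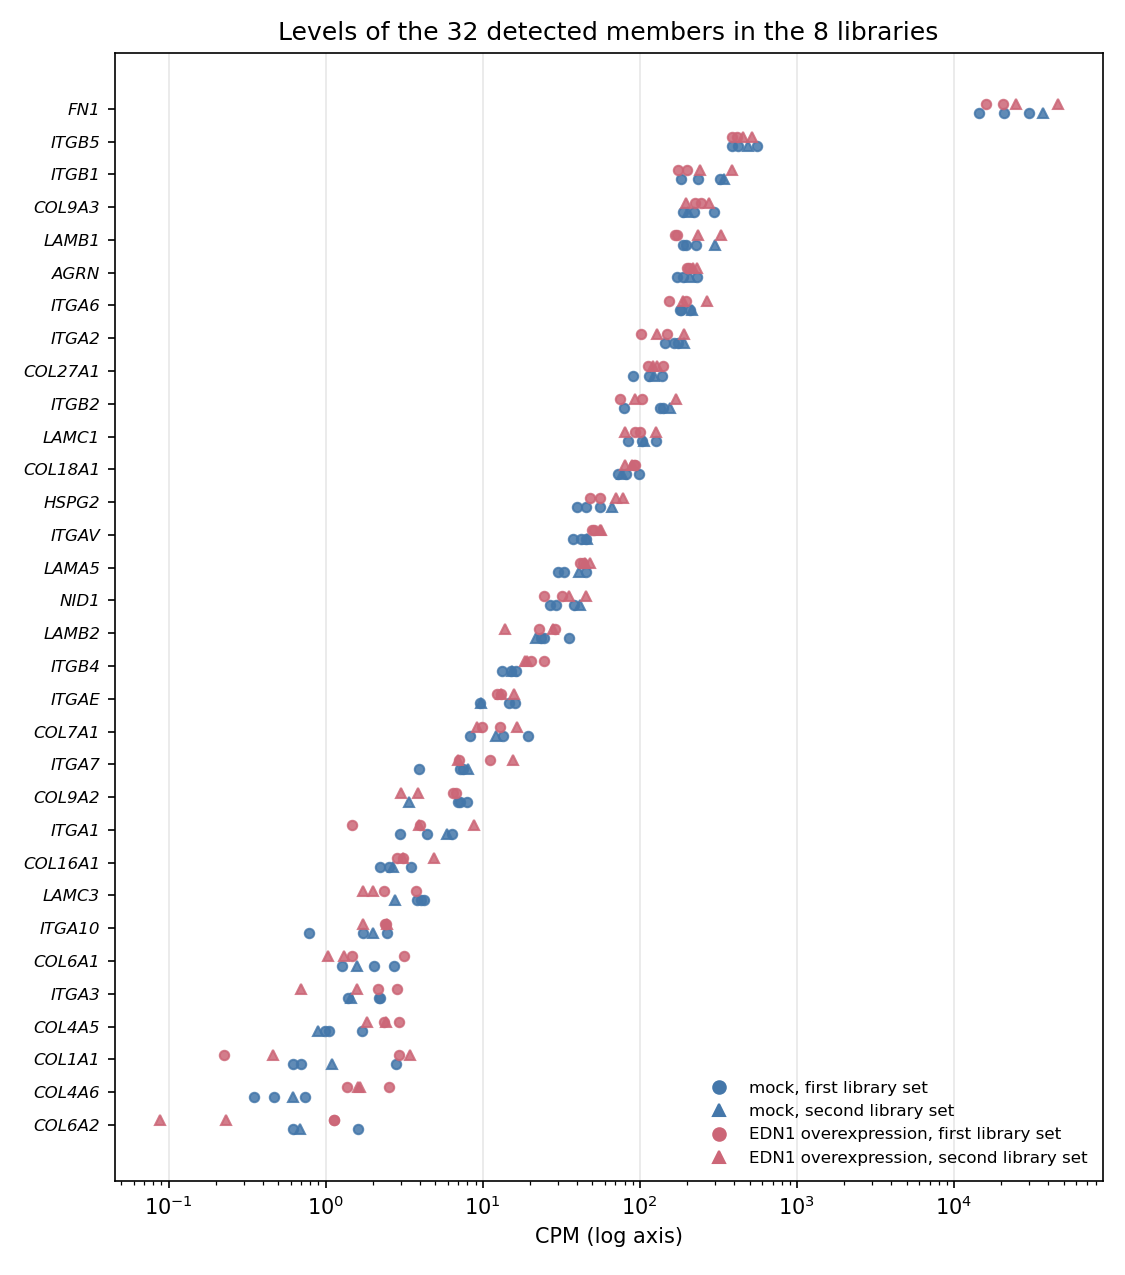
Level of each of the 32 detected genes (rows, ordered by mean) in CPM on a log axis, with 1 point per library; blue is mock, red is EDN1 overexpression, circles are the first and triangles the second library set. FN1 stands at 14377 to 45731 CPM, far above ITGB5, next at 384 to 555 CPM; mock 3, with 0 counts of COL6A2, has no point in that row.

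Levels were compared as plain CPM and per kilobase of the deposited gene length. Over all tested genes the median CPM was 20.3 to 25.3 in the 5 length classes and did not grow with length, so the plain CPM order is given first. By plain CPM the order was FN1 (mean 26171), ITGB5 (454), ITGB1 (261), COL9A3 (231), LAMB1 (228), AGRN (207), ITGA6 (199) and ITGA2 (156). The ranges over libraries of neighbours from ITGB1 to ITGA2 overlapped, so their order is not fixed by these data. Per kilobase the order began with FN1 (2587 CPM per kb), ITGB5 (104), COL9A3 (93.0), ITGB1 (63.9) and LAMB1 (39.0), so COL9A3 and ITGB1 stood in the opposite order.

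Beside the type IV chains, 9 collagens were detected, and 8 of these were tested. COL9A3, a chain of the type IX collagen known from cartilage, was the most counted collagen, with 188, 296, 222 and 203 CPM in mock and 224, 247, 196 and 274 CPM in the EDN1 libraries. The groups overlapped, and the log2 fold change was 0.05 (SE 0.18). Its partner chains were far lower: COL9A2 had 3.00 to 7.91 CPM and COL9A1 at most 2 counts in any library. COL27A1, a fibrillar collagen, ranged from 91.1 to 141.4 CPM (log2 fold change 0.11, SE 0.16), and COL18A1, the basement membrane collagen from which endostatin is cut, from 73.2 to 98.3 CPM (0.11, SE 0.14). COL7A1, which forms anchoring fibrils, ranged from 8.35 to 19.4 CPM (-0.13, SE 0.28), COL16A1 from 2.22 to 4.91 CPM (0.34, SE 0.28) and COL6A1 from 1.04 to 3.18 CPM (-0.12, SE 0.40).

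COL1A1, a chain of the main fibrillar collagen, spread more widely than any other tested gene of the set, 15.1-fold between its lowest and highest library. Its counts were 36, 5, 6 and 16 in mock and 36, 2, 39 and 4 in the EDN1 libraries. Mock 1, EDN1 1 and EDN1 3 were high and EDN1 2 and EDN1 4 low, so neither the groups nor the library sets separated them. COL1A2, the other chain of most type I collagen, had at most 2 counts, and COL3A1 at most 5. COL6A2 had 8, 13, 0 and 10 counts in mock and 14, 10, 1 and 2 in the EDN1 libraries.

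Laminin chains were led by LAMB1, LAMC1 and LAMA5, which together can form a trimer common in epithelial basement membranes. LAMB1 had 198, 228, 190 and 303 CPM in mock 1 to 4 and 173, 169, 235 and 329 CPM in the EDN1 libraries 1 to 4. All 3 libraries of the second set lay above all 5 of the first, while the mock and EDN1 groups overlapped (log2 fold change -0.02, SE 0.24). LAMC1 ranged from 80.6 to 126.9 CPM (-0.07, SE 0.18). LAMA5 had 30.2, 45.7, 32.9 and 41.1 CPM in mock and 43.5, 41.7, 44.9 and 47.9 CPM in the EDN1 libraries, where mock 2 alone lay among the EDN1 libraries (0.25, SE 0.16, unadjusted p of 0.156 from edgeR). LAMB2 ranged from 13.8 to 35.7 CPM (-0.18, SE 0.25).

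LAMC3, a less common gamma chain, had 4.06, 4.20, 3.82 and 2.76 CPM in mock and 2.36, 3.74, 2.02 and 1.73 CPM in the EDN1 libraries. Its log2 fold change was -0.59 (SE 0.30, 95% interval -1.25 to 0.08), and its mean was also lower in the second library set (2.17 CPM) than in the first (3.64 CPM). Of the chains below the limit of detection, LAMA1, an alpha chain of early embryonic basement membranes, had 7, 3, 5 and 2 counts in mock and 26, 8, 9 and 7 in the EDN1 libraries. LAMB3 had 1, 3, 3 and 1 counts against 10, 2, 7 and 5. In a fit without the low count filter LAMA1 had a log2 ratio of 1.54 (SE 0.56) and LAMB3 one of 1.51 (SE 0.70), with an edgeR adjusted p of 0.933 for both. LAMA1 and LAMB3 were named after their values were seen. LAMA2, LAMA3, LAMA4 and LAMB4 had at most 5 counts in any library.

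Among the linkers of the basement membrane, AGRN ranged from 174 to 232 CPM over the 8 libraries, the narrowest spread of the tested genes of the set at 1.33-fold, with a log2 ratio of 0.09 (SE 0.14). HSPG2, perlecan, had 39.6, 56.0, 45.6 and 66.2 CPM in mock and 56.0, 48.1, 78.5 and 71.0 CPM in the EDN1 libraries. The second library set lay above the first in HSPG2, and the log2 fold change between the groups was 0.29 (SE 0.21), but 0.15 in the first set alone and 0.16 in the second. NID1 ranged from 24.7 to 45.2 CPM (0.01, SE 0.22), and NID2 had at most 4 counts.

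**Figure D2:**
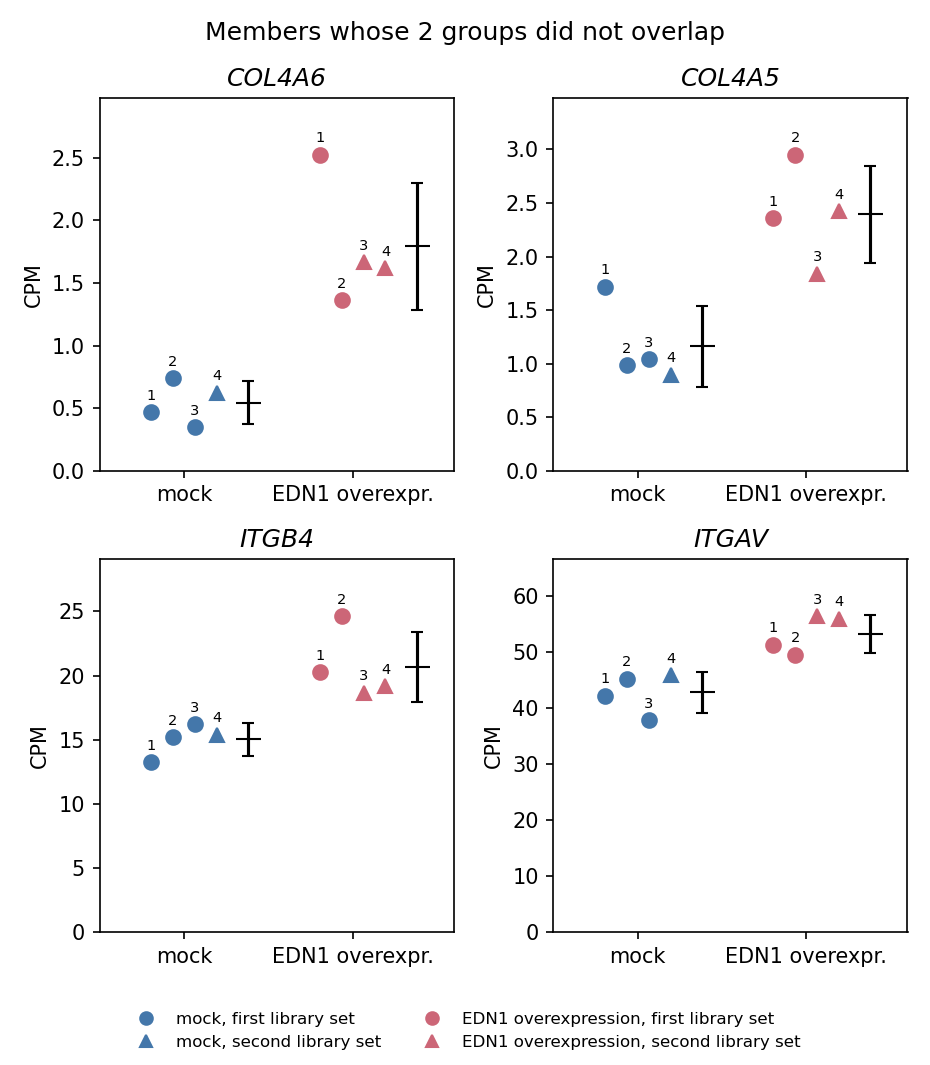
CPM of COL4A6, COL4A5, ITGB4 and ITGAV in each library (points, numbered by replicate; triangles are the second library set) for mock and EDN1 overexpression, with the mean and SD of 4 libraries beside them. Every EDN1 library lies above every mock library in the 4 genes, by the least for ITGAV (45.8 against 49.5 CPM) and COL4A5 (1.72 against 1.84 CPM).

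Of the integrin beta genes, ITGB4, which pairs with ITGA6 in the laminin receptor of hemidesmosomes, was the one with groups apart. Its level was 13.3, 15.2, 16.2 and 15.4 CPM in mock 1 to 4 and 20.3, 24.6, 18.7 and 19.2 CPM in the EDN1 libraries 1 to 4. The means were 15.02 ± 1.25 and 20.7 ± 2.70 CPM (SD, n = 4 each), a log2 ratio of 0.46 (SE 0.16, 95% interval 0.11 to 0.81), with an unadjusted p of 0.0154 and an edgeR adjusted p of 1.00. Within the first library set it was 0.59 (SE 0.20) and within the second 0.29 (SE 0.44). ITGA6 itself had 183, 209, 180 and 214 CPM in mock and 197, 154, 190 and 267 CPM in the EDN1 libraries, with overlapping groups (0.04, SE 0.18).

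ITGAV, the alpha subunit of receptors that bind vitronectin and fibronectin, had 42.1, 45.2, 37.8 and 45.8 CPM in mock and 51.2, 49.5, 56.3 and 55.9 CPM in the EDN1 libraries. The log2 fold change was 0.32 (SE 0.13, 95% interval 0.02 to 0.61), with an unadjusted p of 0.0374 and an edgeR adjusted p of 1.00. It was 0.27 (SE 0.16) within the first library set and 0.28 (SE 0.40) within the second. ITGB5, the beta subunit with which ITGAV binds vitronectin, was the highest integrin, with 386, 555, 421 and 492 CPM in mock and 418, 384, 456 and 520 CPM in the EDN1 libraries. Its groups overlapped, with a log2 ratio of -0.06 (SE 0.16, 95% interval -0.42 to 0.30). Of the other beta subunits that can pair with ITGAV, ITGB3 had at most 3 counts, ITGB6 1 and ITGB8 2, while ITGB1 was the second highest integrin.

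ITGB1, the beta subunit shared by most receptors for collagen, laminin and fibronectin, had 183, 323, 233 and 345 CPM in mock and 176, 200, 243 and 384 CPM in the EDN1 libraries. As with FN1, mock 1 and EDN1 1 were lowest and mock 4 and EDN1 4 highest, and the log2 fold change was -0.11 (SE 0.27). It was 0.03 without mock 4 and 0.02 without EDN1 1. Of its alpha partners ITGA2, a collagen receptor subunit, had 144, 164, 174 and 192 CPM in mock and 102, 149, 129 and 191 CPM in the EDN1 libraries (-0.24, SE 0.20). ITGA7, a laminin receptor subunit, had 7.49, 3.95, 7.19 and 8.08 CPM in mock and 11.1, 7.03, 15.7 and 6.93 CPM in the EDN1 libraries, where EDN1 1 and EDN1 3 alone lay above the mock range. Its log2 fold change was 0.60 (SE 0.32, unadjusted p of 0.0836 from edgeR), and it was 0.32 without EDN1 3. ITGA1 ranged from 1.46 to 8.78 CPM (-0.13, SE 0.46), ITGA3 from 0.693 to 2.85 CPM (0.03, SE 0.40) and ITGA10 from 0.780 to 2.47 CPM (0.39, SE 0.35). ITGA5, the alpha subunit of the main fibronectin receptor, had 2 to 14 counts while FN1 had at least 179613.

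ITGB2, the beta subunit of the leukocyte integrins, was counted 915 to 2252 times per library. Its alpha partners were at or near 0: ITGAL had 2 to 8 counts, ITGAM at most 3, ITGAX at most 2 and ITGAD 0. In CPM, ITGB2 was 79.7, 140, 134 and 156 in mock and 75.2, 104, 93.2 and 170 in the EDN1 libraries, with overlapping groups and a log2 ratio of -0.21 (SE 0.27), which was -0.49 without EDN1 4, -0.06 without EDN1 1 and -0.09 without mock 4. The antisense gene ITGB2-AS1 had 6 to 21 counts, and without a stated use of strand its reads cannot be told apart from those of ITGB2. ITGAE, which pairs with ITGB7 on lymphocytes of epithelia, had 78 to 205 counts, beside 3 to 14 for ITGB7, with a log2 ratio of 0.12 (SE 0.21).

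**Figure D3:**
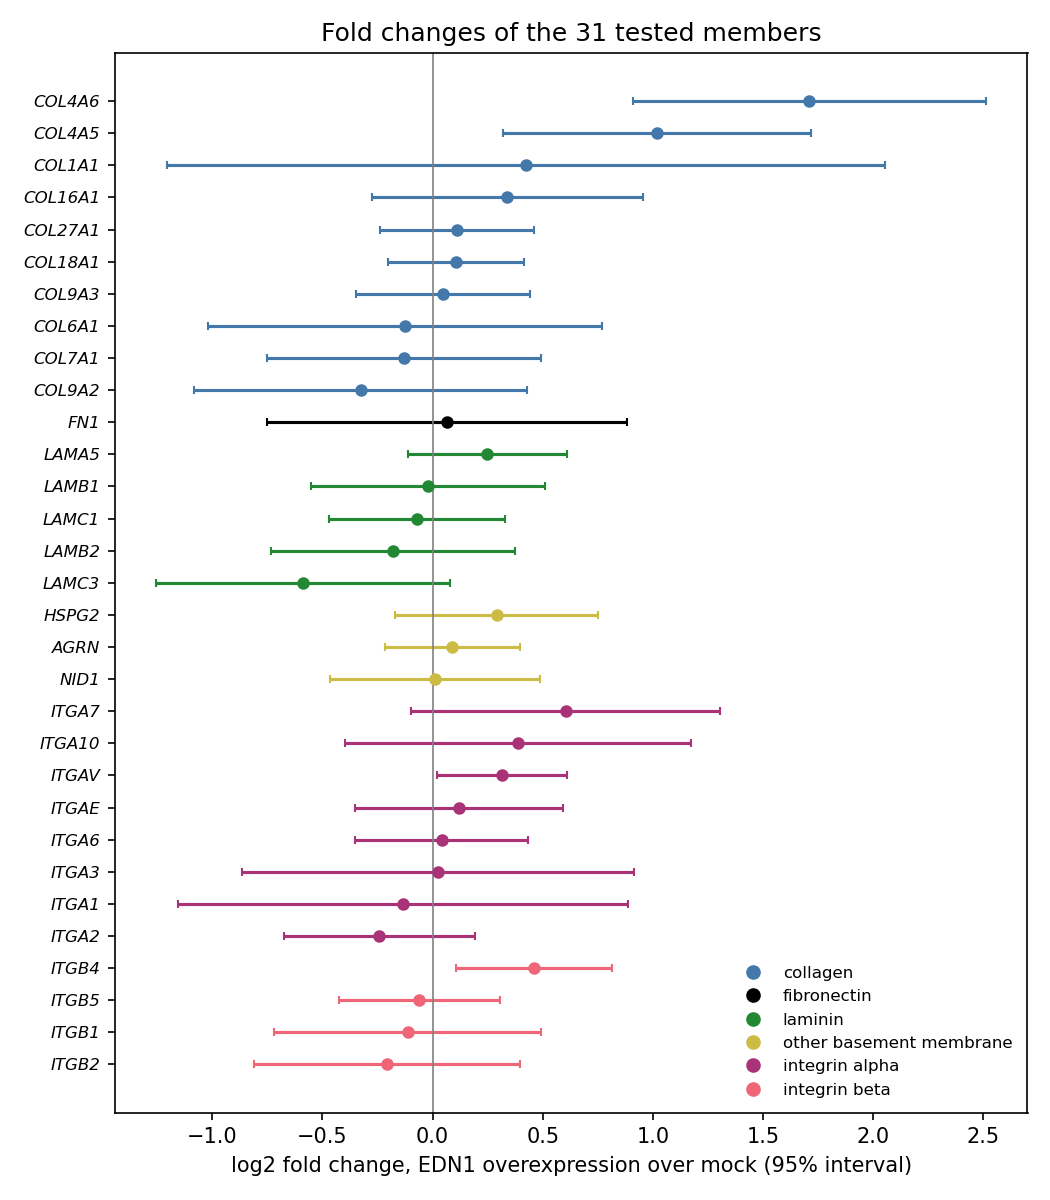
Log2 ratio (fold change) of EDN1 overexpression over mock with its 95% interval (horizontal axis) for the 31 tested genes, grouped and coloured by class. COL4A6, COL4A5, ITGB4 and ITGAV are the genes whose interval excludes 0, and COL1A1 has the widest interval, -1.21 to 2.05.

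Between the library sets, 3 of the 31 tested genes did not overlap, LAMB1 and HSPG2 higher and COL9A2 lower in the second set, beside 23.2% of all tested genes. COL9A2 had 6.43 to 7.91 CPM in the first set and 3.00 to 3.86 CPM in the second. The sets were formed from these same libraries, and their differences are given without a test. Summed over the 85 genes other than FN1, the level was 2463 ± 369 CPM in mock and 2454 ± 400 CPM in the EDN1 libraries (SD, n = 4 each).

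**Figure D4:**
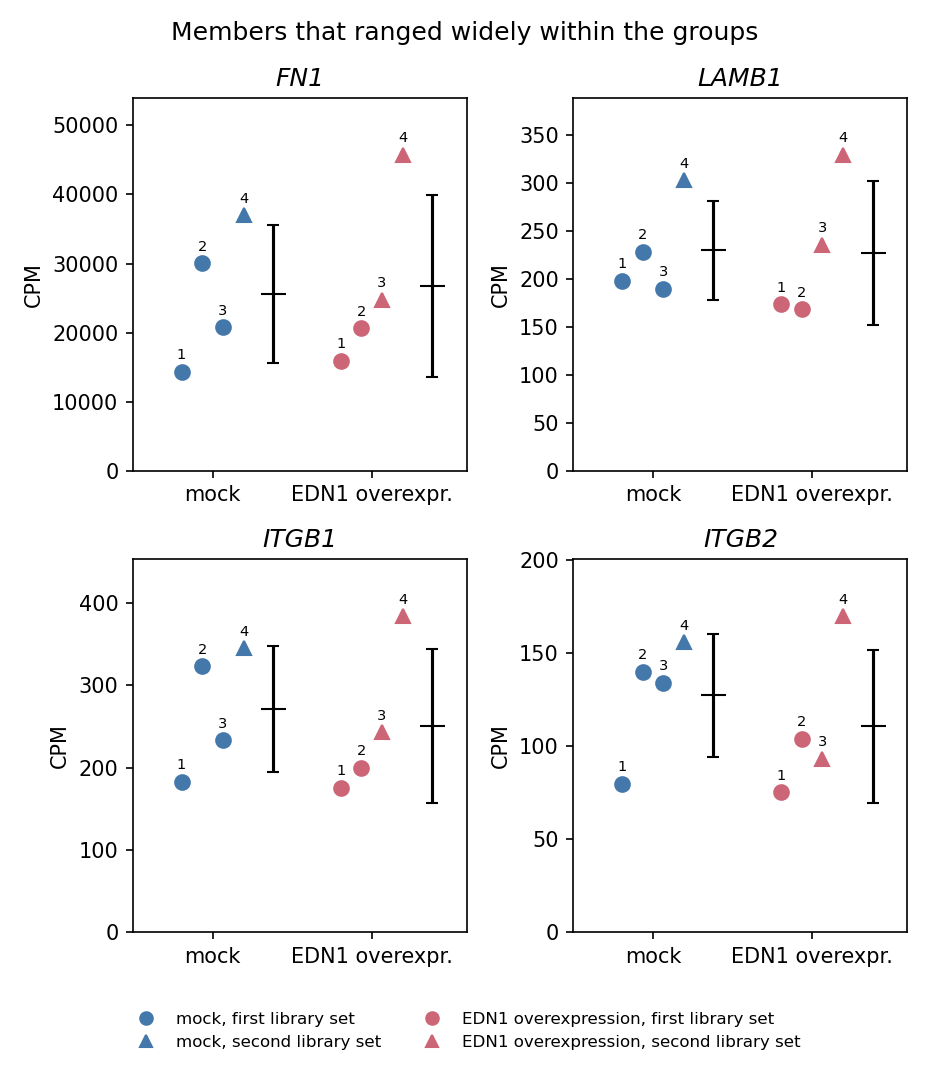
CPM of FN1, LAMB1, ITGB1 and ITGB2 in each library (points, numbered by replicate; triangles are the second library set) for mock and EDN1 overexpression, with the mean and SD of 4 libraries. The groups overlap in the 4 genes, and in LAMB1 the 3 triangles (235 to 329 CPM) lie above all circles (169 to 228 CPM).

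Other genes of the matrix pathway were counted in 4 lists. Of 28 tested collagen processing genes 0 passed over all genes in either direction, with 15 positive and 13 negative fold changes, a median log2 ratio of 0.01 and 1 unadjusted p under 0.05; over all tested genes, here and for the next 3 lists, the median was 0.00, 50.3% were positive and 2.85% had such a p. PCOLCE2, an enhancer of procollagen cleavage, had 14.9, 14.9, 14.1 and 16.4 CPM in mock and 9.84, 8.17, 10.2 and 12.1 CPM in the EDN1 libraries, with all EDN1 libraries below all mock libraries, as in 0.668% of all tested genes. Its log2 fold change was -0.58 (SE 0.17, unadjusted p of 0.00675 from edgeR). The crosslinking enzyme LOXL4 had -0.23 (SE 0.13), also without overlap, the collagen chaperone SERPINH1 0.23 (SE 0.15) and the prolyl hydroxylase subunit P4HB, the most counted of the list, -0.10 (SE 0.21), a sign that turned to 0.01 without mock 2.

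Of 28 tested other matrix proteins 0 passed, with 14 positive and 14 negative fold changes, a median of 0.00 and 1 unadjusted p under 0.05 (2.85% of all tested genes). The proteoglycan VCAN had 47.7, 68.9, 58.2 and 78.5 CPM in mock and 34.7, 39.5, 41.9 and 55.5 CPM in the EDN1 libraries, a log2 ratio of -0.56 (SE 0.20), with EDN1 4 above mock 1. THBS3, a thrombospondin, had a log2 ratio of 0.65 (SE 0.30) from 1.12 CPM in mock. The syndecan genes SDC1 and SDC4 had 0.25 (SE 0.14) and -0.23 (SE 0.30), the latter 0.07 without mock 1.

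Of 22 tested matrix proteases and inhibitors 0 passed, with 9 positive and 13 negative fold changes, a median of -0.05 and 1 unadjusted p under 0.05 (2.85% of all tested genes). ADAMTS4, a protease of aggrecan, had 4.29, 4.08, 3.71 and 3.66 CPM in mock and 8.54, 5.33, 9.47 and 5.54 CPM in the EDN1 libraries, without overlap (as in 1.38% of all tested genes, higher) and with EDN1 1 and EDN1 3 highest. Its log2 fold change was 0.88 (SE 0.25, unadjusted p of 0.00481 from edgeR). MMP19 had -0.66 (SE 0.34), which was 0.00 within the second library set, and TIMP2, an inhibitor of metalloproteinases, had 0.33 (SE 0.19).

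Of 45 tested genes of integrin adhesion and signalling 0 passed, with 18 positive and 27 negative fold changes, a median of -0.03 and 2 unadjusted p under 0.05 (2.85% of all tested genes). LIMS2, an adaptor of the integrin-linked kinase complex, had a log2 ratio of 0.77 (SE 0.30), and DAG1, the laminin receptor dystroglycan, one of 0.40 (SE 0.17). DAG1 had 66.4, 68.1, 70.7 and 73.0 CPM in mock and 104, 83.9, 110 and 68.1 CPM in the EDN1 libraries, so EDN1 4 lay within the mock range. The laminin receptor BCAM had -0.72 (SE 0.33), and the actin crosslinker ACTN4, the most counted of the list, 0.30 (SE 0.19). The adjusted p of each gene named in the 4 lists from edgeR was 1.00.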

How the data were processed

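RNA of 8 HepG2 libraries was sequenced. The deposited table gives raw read counts per gene and a gene length in bases, with no other unit. Per the submitters' processing notes, Bowtie2, edgeR and hg19 were used, without versions. A Lexogen Quant-Seq kit is named per the labels' protocols. Which tool counted the reads, on what annotation and with what strand setting, is not given in the sources used here.

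Groups and replicate numbers came from the titles. Of 25737 rows, those sharing a symbol (288 symbols) were summed, except MARCH1 and MARCH2, leaving 24462 genes; COL11A2 stood on 7 rows. Genes were filtered with filterByExpr (minimum count 10), scaled by TMM and tested by quasi-likelihood in edgeR 4.0.16 under R 4.3.3 (a model with group alone, p-values adjusted by Benjamini-Hochberg over 12577 genes, threshold 0.05). SE is the absolute log2 fold change over the square root of F. CPM uses TMM-scaled library sizes; marker sums and floors use library totals. The test was checked on simulated counts. Library sets came from average-linkage clustering of log2 CPM (prior count 2) over 12546 genes, cut into 2. Library pairs all differed by more than sampling noise.

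Named genes: FN1, COL4A6, the 8 highest and the 8 with the smallest p among the 86, those whose groups did not overlap, detected type IV chains, and from each list 3 by p and 1 by level. Some genes that this rule covers are not reported here. Members and lists were chosen with earlier results of these data known. Upstream sequences are from a RefSeq table (GRCh38.p14) that held 61 of the 86 genes. Alternatives were other scalings and filters, DESeq2 1.42.0, limma voom 3.58.1, a replicate block, the library set as a term or alone, unsummed rows and leaving out each library.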

Additional observations from a re-analysis of the deposited data

Results flagged for a closer look

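In each group of 4 libraries, the gap from an outermost library to the nearest of the others was divided by the group's range (Dixon's ratio). The cutoff was the critical value of this ratio that chance passes in about 1 in 20 groups. Of the 64 groups formed by the 32 detected genes, 2 held a library above the cutoff. The ratio was 0.864 for COL16A1 in EDN1 3 and 0.898 for ITGA10 in EDN1 4. COL16A1 in EDN1 3 was 4.91 CPM, where the other EDN1 libraries were 2.84 to 3.12 CPM. ITGA10 in EDN1 4 was 1.73 CPM, where the other EDN1 libraries were 2.38 to 2.46 CPM.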

How the results depend on the processing

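The number of the 86 genes called was 0 in all 20 alternatives, and so was the number of genes of the 4 lists. Over all genes 1 was called in each, except that the DESeq2 test called 3, none of them in the set or the lists. The log2 fold change stayed positive in all 20 alternatives for COL4A6, COL4A5, ITGB4 and ITGAV. These genes were named because every EDN1 library lay above every mock library. Leaving out a library or taking a library set alone could therefore hardly turn their sign, and the count of alternatives is no measure of stability. The smallest adjusted p was 0.279, for COL4A6 in DESeq2. Leaving out each library gave 1.49 to 1.85 for COL4A6 and 0.90 to 1.29 for COL4A5. Some signs turned. With the library set as a term FN1 was -0.19, ITGA6 -0.0411 and P4HB 0.0301. In the first set alone FN1 was -0.25, COL9A3 0.00 (-0.00117), ITGA6 -0.12 and P4HB 0.0172. In the second set alone FN1 was -0.0783, P4HB 0.0428 and MMP19 0.00 (0.00312). With library totals only LAMB1 was 0.01 (0.00544). Leaving out each library gave -0.32 to 0.30 for FN1, -0.0343 to 0.20 for COL9A3, -0.14 to 0.0367 for ITGB5, -0.39 to 0.0253 for ITGB1, -0.26 to 0.14 for LAMB1, -0.12 to 0.15 for ITGA6, -0.22 to 0.0102 for P4HB and -0.43 to 0.0738 for SDC4; the cause was not tested. Of the 15 other tested genes of the set 9 changed sign in at least 1 alternative. With the replicate number as a block 1 gene and 0 of the set were called, and COL4A6 had 1.71. Deviations from the group means correlated at 0.48, 0.15, -0.15 and 0.53 between libraries numbered 1, 2, 3 and 4. Mock 3 and EDN1 3 fell in different library sets, so these values do not settle whether the numbers pair the libraries. Depth limits the low genes: COL4A6 rests on 3 to 31 counts per library.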

Other observations

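Ratios of counts between partner genes, 10 in all, were looked at after the levels were seen and were not tested. The mock and EDN1 groups overlapped in all 10, and only some of the ratios are given here. ITGB5 over ITGAV was 9.17 to 12.3 in mock and 7.77 to 9.30 in EDN1 overexpression. LAMC1 over LAMA5 was 2.59 to 3.14 in mock and 1.79 to 2.64 in EDN1 overexpression. LAMB1 over LAMC1 was 1.74 to 2.36 in the first library set and 2.60 to 2.92 in the second.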
